A study of Homo sapiens with 6 samples.

Results

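S100 proteins are small calcium-binding proteins with EF-hand motifs. The 9 S100 genes described here are S100A4, S100A6, S100A8, S100A9, S100A10, S100A11, S100A12, S100A13 and S100P, which were chosen by name out of 52992 genes in the tables. The samples were NB4 cells, an established line of acute promyelocytic leukemia (APL), and the question was which genes change in expression when ARID1A is lost. The cells stably expressed Cas9 with an mCherry marker and carried a lentiviral vector with a GFP marker, from which doxycycline induces a small guide RNA (sgRNA). Cells positive for both markers had been sorted, so each group was a sorted population. The LacZ group (control cells) expressed an sgRNA against a bacterial gene that human cells do not have. The sg1 and sg5 groups each expressed 1 of 2 sgRNAs against ARID1A, which encodes part of the SWI/SNF complex that remodels chromatin, and both are labelled ARID1A-deficient. All 3 groups, control cells included, received 1 µg/ml doxycycline for 7 days, and the study's methods describe a further doxycycline-free culture before RNA was isolated, without all-trans retinoic acid. Each group had 2 replicates. The labels do not say whether these were separate cultures, so p-values measure only the spread between these samples.

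S100 proteins mostly act as dimers that change shape on binding calcium and then bind target proteins. S100A8 and S100A9 join to form calprotectin, an abundant cytosolic complex of neutrophils and monocytes, and with S100A12 they make up the calgranulins. Released calgranulins can act on TLR4 and on RAGE, the product of AGER. In the granulocytic lineage calprotectin is characteristic of cells past the promyelocyte, the stage at which APL cells are arrested.

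Of the 9 genes, 8 lie on chromosome 1 between positions 151982915 and 153631360 (GRCh38, GENCODE 29), within the S100 gene cluster and its flank. S100P lies on chromosome 4, at 6693069 to 6697170 on the plus strand. The calgranulin genes are neighbours: S100A9 spans 153357854 to 153361027 on the plus strand, S100A12 spans 153373706 to 153375649 on the minus strand, and S100A8 spans 153390032 to 153391188 on the minus strand. Their upstream sequences are shown because these 3 genes lie side by side and encode the calgranulins. They are given 5′ to 3′ on the strand of the gene, from RefSeq on GRCh38.p14, and end at the base before the first GENCODE exon. The positions are chr1:153357604-153357853 for S100A9, chr1:153391189-153391438 for S100A8 and chr1:153375650-153375871 for S100A12. Capitals mark matches to TATAAA on the gene's strand (the TATA box), TTNNGNAA on either strand (the core bound by C/EBP factors) or GAGGAA on either strand (a core bound by PU.1, the product of SPI1).
S100A9 upstream: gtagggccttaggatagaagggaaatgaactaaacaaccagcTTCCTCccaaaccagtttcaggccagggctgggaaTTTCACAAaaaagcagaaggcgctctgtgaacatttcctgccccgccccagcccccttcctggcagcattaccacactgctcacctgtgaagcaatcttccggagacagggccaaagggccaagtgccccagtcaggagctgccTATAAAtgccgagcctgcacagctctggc
S100A8 upstream: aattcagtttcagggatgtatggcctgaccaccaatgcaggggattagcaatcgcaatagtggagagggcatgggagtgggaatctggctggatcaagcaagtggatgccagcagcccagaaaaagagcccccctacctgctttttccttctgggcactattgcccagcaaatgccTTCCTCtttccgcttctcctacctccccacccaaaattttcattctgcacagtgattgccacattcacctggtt
S100A12 upstream: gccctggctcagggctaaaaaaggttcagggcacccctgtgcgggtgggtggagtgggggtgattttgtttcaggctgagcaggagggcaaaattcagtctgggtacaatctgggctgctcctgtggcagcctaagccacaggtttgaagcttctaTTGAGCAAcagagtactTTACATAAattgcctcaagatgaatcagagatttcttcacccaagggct

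The S100A9 stretch held all 3 motifs, with the TATA box at position -29 from the start site, the C/EBP core at -173 and the PU.1 core at -208. The S100A8 stretch held only the PU.1 core, at -74 from the most upstream of its 3 RefSeq start sites. The other 2 windows of S100A8, which overlap, shared a TATA box (at -29 and -126 from their start sites) and a C/EBP core (at -117 and -214). The former also held the same PU.1 core, there at -189, and the latter a further C/EBP core at -78. The S100A12 stretch held 2 C/EBP cores, at -94 and -77 from its RefSeq start, and its search window also held a TATA box at -8, past the stretch shown. Among all 35116 RefSeq promoters, the same 250 bases held the TATA box in 6.8%, the C/EBP core in 33.2% and the PU.1 core in 23.6%. The PU.1 core was in no search window of the other 7 S100 genes, beside the 23.6% of all promoters that held it. Outside the calgranulins, windows of S100A11, S100A6, S100A13 and S100P held C/EBP cores. Windows of S100A4, S100A13 and S100P held a TATA box. With so few genes, the matches do not set the calgranulins apart. A match is a run of letters and was not tested for binding.

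Transcript values were summed per gene, with total estimated counts of 46131178 to 54843745 per sample. Levels between samples are given as CPM, counts scaled to library size with edgeR's TMM factors, and levels between genes as TPM, which is corrected for transcript length. Comparisons used edgeR's quasi-likelihood test on all 6 samples, and a gene was called at an adjusted p under 0.1 over the 18514 genes tested, all 9 S100 genes among them. On the first principal component, with 34.4% of the variance, sg1 replicate 1 (34.3) and sg5 replicate 2 (46.8) stood apart from the other 4 samples (-30.3 to -11.3). ARID1A mRNA was 155 and 191 CPM in LacZ cells, 211 and 191 CPM in sg1 and 124 and 145 CPM in sg5. These levels do not check the labels, since small insertions and deletions made by Cas9 can leave mRNA in place. Of the markers of the labelled cell type, MPO (5991 to 7769 TPM), PRTN3, AZU1 and CTSG were present, while ELANE, the neutrophil elastase gene, was listed under 0.3 TPM in every sample, a value that may depend on the transcript set used for quantification, which was not tested.

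The S100 genes covered a wide range of levels in NB4 cells. S100A4 was the most abundant, with a median of 1008 TPM over the 6 samples and a range of 751 to 1261 TPM. S100A11 followed at a median of 406 TPM (367 to 458 TPM) and S100P at 238 TPM (70.6 to 307 TPM). The ranges of these 3 genes did not overlap, so their order was the same in every sample. Most of the S100P level came from the short non-coding transcript S100P-202, and the coding S100P-201 alone was 26.8 to 116 TPM. S100A10 had a median of 97.8 TPM (77.1 to 123 TPM), S100A6 of 71.2 TPM (60.3 to 86.7 TPM) and S100A9 of 60.4 TPM (26.2 to 121 TPM). The ranges of S100P, S100A10, S100A6 and S100A9 overlapped from neighbour to neighbour, though S100A10 was above S100A6 in each sample. S100A8 had a median of 12.4 TPM (3.44 to 23.7 TPM), a range wholly under that of S100A9. S100A13 had a median of 6.63 TPM (5.55 to 7.69 TPM), which overlapped with S100A8, and S100A12 came last at 0.696 TPM (0.146 to 1.39 TPM), apart from S100A13. Summed over the 9 genes, the level was 1563 to 1770 TPM in LacZ cells and 1770 to 2145 TPM in ARID1A-deficient cells, of which S100A4 made up 45.6% to 48.0% and 51.7% to 62.1%.

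**Figure D1:**
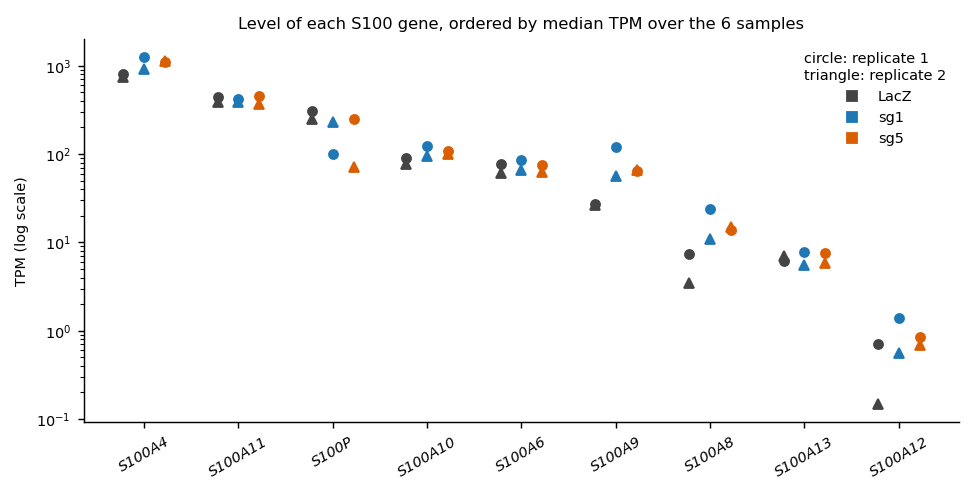
Level of each S100 gene in TPM (log axis) in the 6 samples, ordered by the median, with circles for replicate 1 and triangles for replicate 2 and a colour for each group. S100A4 lies highest, at 751 to 1261 TPM, and S100A12 lowest, at 0.146 to 1.39 TPM.

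None of the 9 genes passed the threshold in sg1 or sg5 against LacZ, in the mean of sg1 and sg5 against LacZ or between sg1 and sg5 (0 of 9 in each). In all genes tested the called share was 0.0378% in sg1, 0.0972% in sg5, 0.167% in the joined comparison and 0.0054% between the sgRNAs. At an unadjusted p under 0.05 there were 4 of the 9, namely S100A4, S100A8, S100A9 and S100A10, in each of the 3 comparisons with LacZ and 0 of 9 between sg1 and sg5. The corresponding shares of all genes were 4.15% in sg1, 7.47% in sg5, 7.21% in the joined comparison and 1.38% between sg1 and sg5. The comparisons with LacZ share the same 2 control samples and are not independent. Over the 9 genes the median change on the log2 scale was 0.34 (sg1) and 0.33 (sg5), against 0.002 and -0.01 over all genes tested.

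DESeq2, the tool the study used, called S100A8 and S100A9 in sg1 (2 of 9, against 0.742% of all genes with an adjusted p) and in sg5 (2 of 9, against 1.35%), and S100A4, S100A8 and S100A9 in the joined comparison (3 of 9, against 1.81%). It called 0 of 9 between sg1 and sg5 (0.027% of all genes). The levels of all 4 ARID1A-deficient samples lay above both LacZ samples in 4 of 9 genes, the same S100A4, S100A8, S100A9 and S100A10, and below both in 1 of 9, S100P. Over all genes tested, 9.72% lay wholly above and 10.4% wholly below. Without the 2 libraries that stood apart, edgeR called 3 of 9 in sg1 (S100A8, S100A9 and S100P, against 2.2% of all genes), 3 of 9 in sg5 (S100A4, S100A8 and S100A9, against 4.09%), 4 of 9 in the joined comparison (4.2%) and 0 of 9 between sg1 and sg5 (1.12%). Each ARID1A group then held a single sample, so the spread came from the 2 LacZ samples alone. These calls therefore do not measure the spread among ARID1A-deficient samples.

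**Figure D2:**
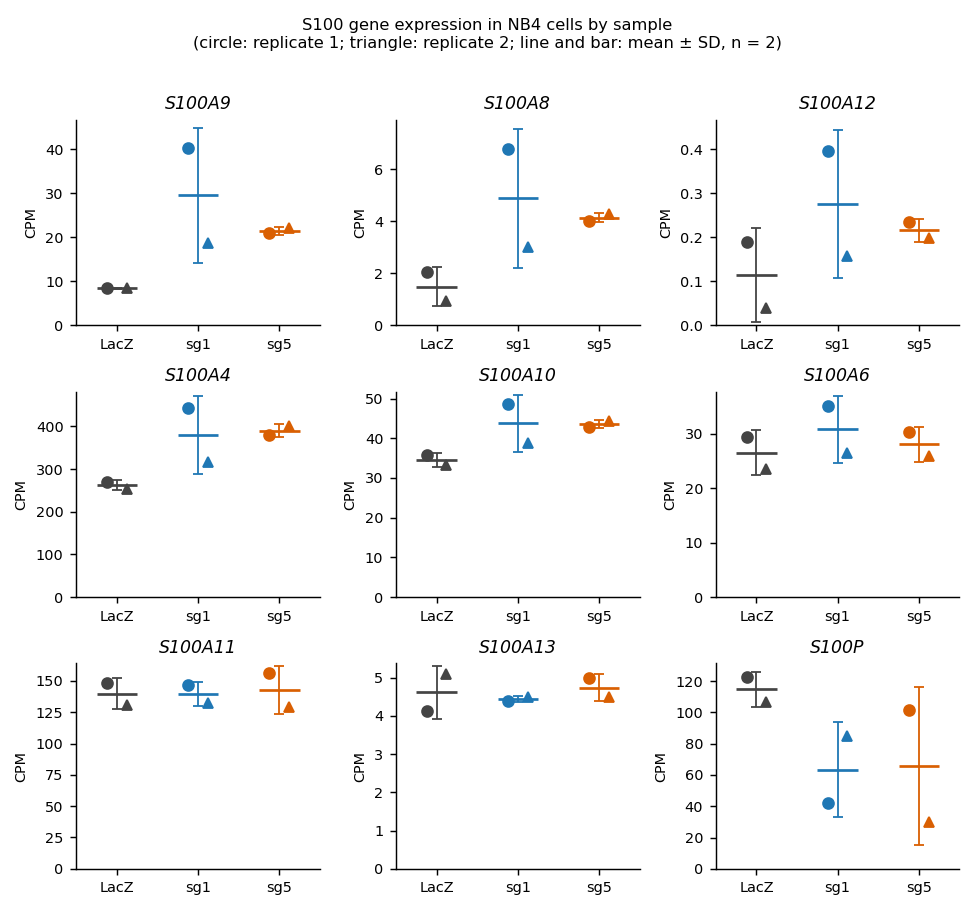
CPM of each S100 gene in the LacZ, sg1 and sg5 groups, with circles for replicate 1, triangles for replicate 2, and a line and bar for the mean ± SD (n = 2). S100A9, S100A8, S100A4 and S100A10 lie higher in all 4 ARID1A-deficient samples than in either LacZ sample, S100P lies lower, and the other 4 genes overlap.

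Of the 9 genes, the calgranulin S100A9 had the lowest p-value in each comparison with LacZ. Its level was 8.54 and 8.39 CPM in LacZ cells (8.47 ± 0.109 CPM, SD, n = 2), 40.3 and 18.7 CPM in sg1 (29.5 ± 15.3) and 20.9 and 22.2 CPM in sg5 (21.5 ± 0.911). Every ARID1A-deficient sample was above both control samples, sg1 replicate 1 stood highest, and the other 3 lay close together. The sg1 mean was 3.49-fold and the sg5 mean 2.54-fold that of LacZ cells. By edgeR the log2 fold change was 1.80 ± 0.32 (SE, unadjusted p = 0.000555, adjusted p = 0.302) in sg1, 1.35 ± 0.32 (unadjusted p = 0.00304, adjusted p = 0.417) in sg5 and 1.57 ± 0.29 (adjusted p = 0.17) joined. Ordered by unadjusted p, S100A9 was number 34 of 18514 genes in sg1 and number 135 in sg5. By DESeq2 the same changes had adjusted p-values of 4.98e-06 and 0.00312. A single transcript, S100A9-201, carried its counts, which were 423 to 2039 per sample, and no other annotated gene overlaps it.

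The edgeR call of S100A9 changed with the libraries in the fit. Without sg1 replicate 2 its log2 fold change in sg1 was 2.26, and without sg1 replicate 1 it was 1.14. In sg5, whose own samples were 20.9 and 22.2 CPM, leaving out either sg1 library gave 1.36. Each of these fits held a single sg1 sample, so the spread came from the LacZ and sg5 samples and not from sg1. A fit of sg5 and LacZ cells alone gave 1.35 ± 0.15 (adjusted p = 0.0284 by edgeR). The point estimate in sg5 stayed between 1.25 and 1.41 over 18 alternatives, of which 6 called the gene. It was not called in sg5 with either replicate block, without either LacZ replicate or without either sg5 replicate. Nor was it called with median-ratio factors, the filter on mean counts, the transcript length offset, no robust estimation or limma on TPM.

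**Figure D3:**
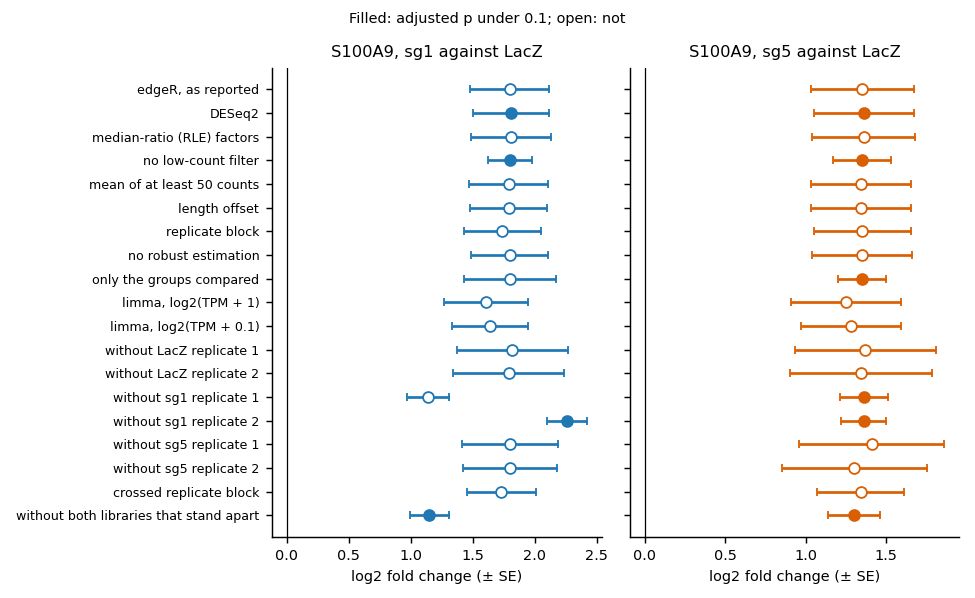
Log2 fold change of S100A9 (x axis, ± SE) in sg1 and in sg5 against LacZ in the reported edgeR fit and under 18 alternatives (y axis), with filled points where the adjusted p was under 0.1 and open points where it was not. The estimates lie above 0 throughout, from 1.14 to 2.26 in sg1 and from 1.25 to 1.41 in sg5.

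S100A8, the partner of S100A9 in calprotectin, had the same order of samples at a lower level. Its level was 2.03 and 0.952 CPM in LacZ cells, 6.76 and 2.99 CPM in sg1 and 4.01 and 4.27 CPM in sg5. Its control samples differed by more than those of S100A9, and all 4 ARID1A-deficient samples were above both. The log2 fold change was 1.71 ± 0.45 (adjusted p = 0.652) in sg1, 1.47 ± 0.45 (adjusted p = 0.535) in sg5 and 1.59 ± 0.41 (adjusted p = 0.349) joined, and DESeq2 gave adjusted p-values of 0.0341 in sg1 and 0.0863 in sg5. These values rest on few reads, 48 to 342 estimated counts per sample. The transcript S100A8-202 held 47.2% to 100% of them and S100A8-201 most of the rest, a split between overlapping transcripts that moved from sample to sample without following the groups. The ratio of S100A9 to S100A8 in TPM was 3.61 and 7.61 in LacZ cells and 4.34 to 5.25 in ARID1A-deficient cells, so the ratio in the ARID1A-deficient samples lay between those of the control samples.

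S100A12, the third calgranulin and a RAGE ligand, was close to the limit of what these libraries could count. Its estimated counts were 10 and 2 in LacZ cells, 20 and 7 in sg1 and 11 and 10 in sg5. LacZ replicate 1 was above sg1 replicate 2 in CPM, so LacZ and sg1 overlapped, while both sg5 samples (0.234 and 0.198 CPM) were above both LacZ samples (0.19 and 0.0397 CPM). The log2 fold change was 1.25 ± 0.79 in sg1 and 0.89 ± 0.80 in sg5 (adjusted p = 0.993 and 0.788), so a difference was not detectable at this depth. Summed over the 3 calgranulins, the level was 29.8 and 35.0 TPM in LacZ cells and 68.5 to 146 TPM in ARID1A-deficient cells.

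S100A4, a metastasis-associated protein that binds nonmuscle myosin, was both abundant and higher in every ARID1A-deficient sample. Its level was 271 and 254 CPM in LacZ cells, 444 and 316 CPM in sg1 and 380 and 401 CPM in sg5. The lowest ARID1A-deficient sample, sg1 replicate 2, was above the higher LacZ sample by less than the gap between the sg1 samples. The log2 fold change was 0.53 ± 0.16 in sg1 (adjusted p = 0.851) and 0.57 ± 0.16 in sg5 (adjusted p = 0.494). In the joined comparison it was 0.55 ± 0.14 (adjusted p = 0.349 by edgeR, 0.0356 by DESeq2). The transcript S100A4-204 held 92.0% to 93.3% of its counts in every sample. S100A3, which overlaps S100A4 on the same strand, differed in the other direction (log2 fold change -0.76 ± 0.40 in sg1 and -0.84 ± 0.40 in sg5) at 0.783 to 1.73 TPM.

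S100A10, also called p11, pairs with annexin A2 and holds plasminogen at the cell surface, a pathway known for its part in the bleeding of APL. Its level was 35.8 and 33.2 CPM in LacZ cells, 48.7 and 38.7 CPM in sg1 and 42.8 and 44.2 CPM in sg5. All 4 ARID1A-deficient samples were above both LacZ samples, with log2 fold changes of 0.34 ± 0.14 (adjusted p = 0.993) in sg1 and 0.33 ± 0.14 (adjusted p = 0.663) in sg5. ANXA2, the gene of that partner, was 136 and 141 TPM in LacZ cells, 278 and 186 TPM in sg1 and 201 and 253 TPM in sg5. It did not overlap between the groups either, and its log2 fold change was 0.77 in sg1 (adjusted p = 0.652) and 0.75 in sg5 (adjusted p = 0.485).

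S100A6 (calcyclin), S100A11 and S100A13 overlapped between LacZ and ARID1A-deficient cells. S100A6, a partner of the ubiquitin ligase adaptor CACYBP, was 29.4 and 23.6 CPM in LacZ cells, 35.2 and 26.4 CPM in sg1 and 30.3 and 25.8 CPM in sg5, with log2 fold changes of 0.22 ± 0.18 and 0.08 ± 0.18. S100A11, which binds annexin A1, was 149 and 131 CPM in LacZ cells and 129 to 157 CPM in ARID1A-deficient cells. Its log2 fold changes, 0.00 ± 0.14 in sg1 and 0.03 ± 0.14 in sg5, were the smallest of the 9 genes together with those of S100A13. S100A13, which takes part in the release of FGF1, was 4.12 and 5.10 CPM in LacZ cells and 4.39 to 4.99 CPM in ARID1A-deficient cells, with log2 fold changes of -0.05 ± 0.22 and 0.04 ± 0.22. Most S100A13 counts went to the non-coding transcripts S100A13-205 and S100A13-206, and the coding S100A13-204 held 0% to 26.0%. The 3 genes overlap other annotated genes, and reads of S100A6 and S100A11 cannot be told from antisense partners where the counting did not use strand.

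**Figure D4:**
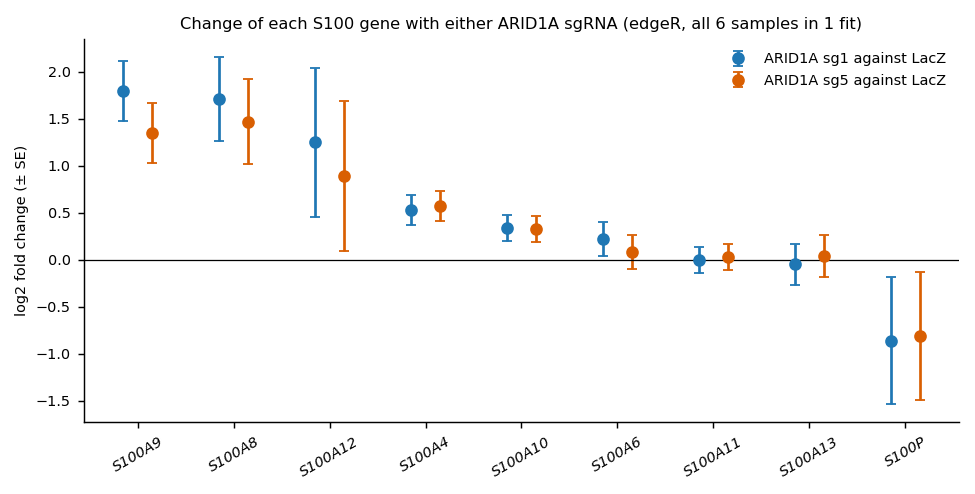
Log2 fold change (y axis, ± SE, edgeR) of each S100 gene in sg1 and in sg5 against LacZ. The estimates for the 2 sgRNAs lie within 1 SE of each other for S100A8, S100A12, S100A4, S100A10, S100A6, S100A11, S100A13 and S100P, and those of S100A9 are 1.80 and 1.35.

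S100P, which binds ezrin and IQGAP1 inside cells and RAGE outside, was the 1 gene of the 9 that was lower in every ARID1A-deficient sample. Its level was 123 and 107 CPM in LacZ cells, 41.9 and 85.0 CPM in sg1 and 101 and 30.03 CPM in sg5. In each ARID1A group 1 sample was near the LacZ cells and the other far below, and the low samples were the same 2 libraries that stood apart over all genes. Within a group, sg1 replicate 1 had 0.493 times the level of replicate 2, and sg5 replicate 2 had 0.296 times the level of replicate 1. The log2 fold change was -0.86 ± 0.68 in sg1 (adjusted p = 0.993), -0.81 ± 0.68 in sg5 (adjusted p = 0.788) and -0.83 ± 0.57 joined (adjusted p = 0.777). Without the 2 libraries that stood apart the joined value was -0.31, with -0.43 in sg1 and -0.18 in sg5, from a single sample per ARID1A group. The coding transcript S100P-201 was 116 and 102 TPM in LacZ cells, 37.6 and 74.4 TPM in sg1 and 93.0 and 26.8 TPM in sg5, and the short non-coding S100P-202, with 15.04% to 21.7% of the counts, made up most of the gene's TPM.

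Between sg1 and sg5, no S100 gene had an unadjusted p under 0.05. The difference, as sg1 over sg5 on the log2 scale, was 0.46 ± 0.31 for S100A9 (unadjusted p = 0.176) and 0.24 ± 0.43 for S100A8. It was -0.04 ± 0.16 for S100A4 and -0.05 ± 0.68 for S100P, whose replicates differed widely in each group. A p that misses the threshold does not show that the sgRNAs had the same effect.

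The genes around the calgranulins were examined by position. Of 61 annotated genes within 500 kb of S100A9 or S100A8, 16 were tested, of which 6 were among the 9 S100 genes and 10 were not. Of those 10, 0 were called in any comparison by edgeR or DESeq2, and 1 in sg1 and 2 in sg5 had an unadjusted p under 0.05 by edgeR. Their median change on the log2 scale was -0.08 (sg1) and -0.09 (sg5), and their range in the joined comparison was -0.80 to 0.77. Wholly above LacZ cells lay 1 of the 10, AL162258.1, an unnamed processed transcript that overlaps S100A13 (beside 9.72% of all genes). Wholly below lay 2, S100A3 and the fatty acid transporter gene SLC27A3 (beside 10.4%). The rest overlapped and were between -0.35 (S100A1) and 0.14 (ILF2) in the joined comparison, with SNAPIN (-0.01) and CHTOP (0.04) nearest to 0.

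**Figure D5:**
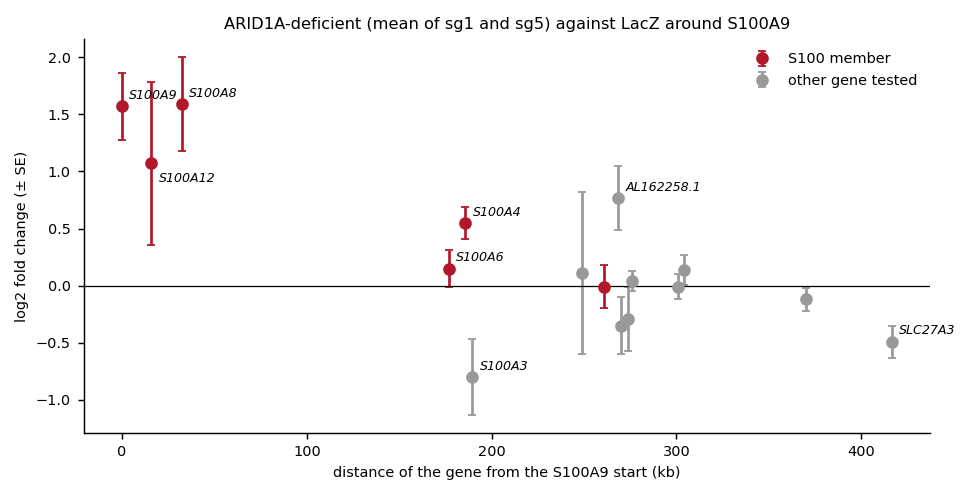
Log2 fold change (y axis, ± SE) of the mean of sg1 and sg5 against LacZ for the 16 genes tested, by distance in kb from the S100A9 start (x axis). S100A9, S100A8 and S100A12 lie highest, at 1.57, 1.59 and 1.07, and the 10 genes outside the S100 set lie between -0.80 and 0.77.

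Outside the 9 S100 genes, those whose pattern over the 6 samples was most like that of S100A9 were SLPI, WNT7B, ACY3, BMP2 and LYZ. Likeness was the root mean square difference in log2 CPM after centring each gene on its own mean, over 13165 genes with a mean of at least 1 CPM. It was 0.196 for SLPI, a secreted inhibitor of neutrophil elastase, 0.231 for WNT7B and 0.285 for LYZ, the lysozyme gene, where S100A9 itself varied by 0.797 around its mean. SLPI was 17.9 and 16.9 CPM in LacZ cells, 59.9 and 37.8 CPM in sg1 and 44.5 and 50.5 CPM in sg5. Among genes outside the 9, S100A8 was most like BMP2 (0.201), followed by SLPI (0.33), CXorf21, SLC1A3 and WNT7B, and within the 9 it was 0.317 from S100A9 and 0.322 from S100A12. The 6 samples are the same libraries for all these genes, so the likeness is a description.

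Of the other 12 S100 genes on a separate list, 5 were tested and 0 were called by edgeR or DESeq2. At an unadjusted p under 0.05 by edgeR there were 0 in sg1 and 1 in sg5, S100Z (0.112 to 0.883 TPM). Those 5 had a median log2 fold change of -0.25 (sg1) and -0.45 (sg5). S100B was the highest at 10.95 to 13.6 TPM, S100A1 was 2.68 to 5.55 TPM, and 9 of the 12 stayed under 1 TPM in every sample. S100A2, S100A7, S100A14 and S100G, genes known chiefly from epithelia, were among those 9.

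Receptors and signal genes of extracellular S100 proteins were expressed, and by edgeR and DESeq2 0 of the 7 receptor genes and 0 of 8 TLR4 adaptor and signal genes were called. Of the receptors 0 had an unadjusted p under 0.05 by edgeR in sg1 or sg5, and of the signal genes 1 did in sg1, MYD88, the adaptor that TLR4 signals through, at 25.01 and 23.1 TPM in LacZ cells and 28.9 to 35.3 TPM in ARID1A-deficient cells. The median log2 fold changes were -0.07 and -0.18 for the receptors in sg1 and sg5, and 0.01 and -0.02 for the signal genes. TLR4, the receptor of calprotectin, was 7.64 and 6.76 TPM in LacZ cells, 10.2 and 8.13 TPM in sg1 and 9.06 and 8.16 TPM in sg5, above LacZ cells throughout (adjusted p = 0.993 and 0.707). LY96, its co-receptor, was 0.545 to 1.47 TPM and overlapped. CD14, which presents ligands to TLR4, stayed under 1 TPM and lay below LacZ cells throughout, as did CD33, a sialic acid receptor of myeloid cells, at 74.7 and 72.9 TPM in LacZ cells and 59.9 to 65.8 TPM in ARID1A-deficient cells. BSG, a receptor of S100A9, was the most abundant at 456 to 533 TPM, and AGER was 14.2 to 21.9 TPM, and both overlapped.

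Among 16 genes of intracellular S100 partners, 13 were tested and 0 were called by edgeR, with medians of 0.16 (sg1) and 0.26 (sg5) on the log2 scale. At an unadjusted p under 0.05 there were 4 in sg1 (ANXA1, ANXA2, ANXA5 and AHNAK, beside 4.15% of all genes) and 2 in sg5 (ANXA2 and ANXA5, beside 7.47%), and DESeq2 called ANXA2 in both and AHNAK in sg1. By CPM, 6 of the 13 lay wholly above LacZ cells (ANXA1, ANXA2, ANXA5, AHNAK, SUGT1 and IQGAP1) and the annexin genes ANXA6 and ANXA11 wholly below, beside 9.72% and 10.4% of all genes. AHNAK, a large scaffold protein bound by S100A10 with annexin A2, was 40.7 and 35.4 TPM in LacZ cells and 41.1 to 60.1 TPM in ARID1A-deficient cells (log2 fold change 0.65 in sg1 and 0.30 in sg5, adjusted p = 0.451 and 0.685). Of 8 plasminogen activation genes, 6 were tested and 0 called by edgeR or DESeq2, with 0 at an unadjusted p under 0.05 (medians 0.18 and 0.01). PLAU, urokinase, was 27.3 and 28.1 TPM in LacZ cells and 29.2 to 32.3 TPM in ARID1A-deficient cells, while PLAUR, its receptor, overlapped.

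Of 9 myeloid transcription factors 0 were called by edgeR (medians -0.02 in sg1 and -0.23 in sg5). At an unadjusted p under 0.05 there were 2 in sg1 (KLF4 and GFI1, beside 4.15% of all genes) and 5 in sg5 (these and CEBPA, CEBPB and CEBPD, beside 7.47%). Of these, KLF4 was higher and the others were lower. DESeq2 called KLF4 in sg1 (beside 0.742% of all genes), GFI1 in sg5 (beside 1.35%) and both in the joined comparison (beside 1.81%). GFI1 was 99.2 and 116 TPM in LacZ cells, 78.6 and 87.4 TPM in sg1 and 77.4 and 64.8 TPM in sg5 (edgeR adjusted p = 0.993 and 0.446). CEBPB, a C/EBP factor of emergency granulopoiesis, was 54.8 and 66.9 TPM in LacZ cells, 34.7 and 45.5 TPM in sg1 and 41.3 and 16.8 TPM in sg5, below LacZ cells in every sample (adjusted p = 0.993 and 0.663). KLF4, a factor of monocytic cells, was 4.17 and 3.63 TPM in LacZ cells, 8.20 and 6.06 TPM in sg1 and 5.29 and 6.86 TPM in sg5, above them in every sample (adjusted p = 0.652 and 0.574). SPI1, which encodes PU.1, was 206 to 255 TPM, CEBPA was 63.6 to 114 TPM and CEBPE was 48.5 to 67.1 TPM. By CPM these 3 genes lay below both LacZ samples in sg5 and overlapped over the 4 ARID1A-deficient samples.

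Marker genes of several cell types were measured beside S100A8 and S100A9, which are abundant in neutrophils and monocytes. In bulk RNA a change in the number of cells and a change of RNA per cell cannot be told apart. Over all genes, the share at an unadjusted p under 0.05 was 4.15% in sg1 and 7.47% in sg5. DESeq2 called 0.742% and 1.35% of all genes, and edgeR 0.0378% and 0.0972%. Of 8 mature neutrophil markers, 6 stayed under 1 TPM in every sample, and FCGR3B was at 0 throughout. Their summed level, nearly all of it MMP9, was 213 and 272 TPM in LacZ cells and 90.0 to 161 TPM in ARID1A-deficient cells, opposite in direction to S100A9. Only 3 of the 8 were tested, of which edgeR called 0 and MMP9 alone had an unadjusted p under 0.05, and DESeq2 called MMP9 in both sgRNAs. Of 6 monocyte markers 5 were tested and 0 were called by edgeR, with FCN1 and LYZ in sg1 and LYZ in sg5 at an unadjusted p under 0.05, and DESeq2 called LYZ in both. CD14 and VCAN stayed under 1 TPM, while the summed level was 179 and 189 TPM in LacZ cells and 237 to 415 TPM in ARID1A-deficient cells, most of it LYZ (126.5 and 119.6 TPM against 175 to 339 TPM). The sum was highest in sg1 replicate 1, as was S100A9, and its part in the S100A9 values was not tested. Of 7 eosinophil, basophil and mast cell markers, EPX, PRG2 and HDC were called lower in sg5 and in the joined comparison, and PRG2 and HDC in sg1, with a summed level of 102 and 110 TPM in LacZ cells and 39.2 to 45.6 TPM in ARID1A-deficient cells. Of 5 promyelocyte markers 4 were tested and 0 were called by edgeR (AZU1 and CTSG had an unadjusted p under 0.05 in both sgRNAs, and DESeq2 called them in sg5), with a summed level of 8064 and 8950 TPM in LacZ cells and 6754 to 7999 TPM in ARID1A-deficient cells. Of 5 lymphoid markers 3 were tested and of 5 epithelial markers 2, and 0 of these were called by edgeR or DESeq2, with 0 at an unadjusted p under 0.05 in sg1 or sg5. The lymphoid list included CD3E and MS4A1 under 1 TPM, and NKG7, at 148 to 202 TPM, made up most of its sum. All 5 erythroid markers stayed under 1 TPM, too low to be tested, as did the keratin genes KRT5, KRT14 and KRT18.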

How the data were processed

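The authors quantified reads per transcript, and the deposited values are estimated counts, in which a read that fits several transcripts is divided among them, and TPM, corrected for transcript length by the authors. The submitters' processing notes name kallisto, DESeq2 and hg19. The human transcript set is not given in the sources used here. Of 196354 transcripts, 181857 (92.6%) matched GENCODE 29 by identifier, with 95.44% to 95.53% of the counts. They were summed to 52992 genes in 6 samples and rounded. Coordinates are those of GENCODE 29 (GRCh38) and not of the authors' build.

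Genes were filtered with filterByExpr (minimum count 10) and fitted with edgeR 4.0.16 (R 4.3.3, TMM, robust glmQLFit, group as the only term, FDR 0.1 by Benjamini-Hochberg, the study's threshold). The spread was a biological coefficient of variation of 16.6%. SEs were derived from the F statistic. DESeq2 1.42.0 and limma 3.58.1 on log2(TPM + 1) were alternatives, as were other factors, filters, a transcript length offset, the replicate block, subsets of samples and leaving out each replicate. Functions were tested on simulated data first. The reads carry no molecular identifiers, so they are not independent molecules.

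The 9 S100 genes were given by name, and the lists (receptors, TLR4 adaptors, intracellular partners, plasminogen activation, myeloid factors, other S100 genes and cell type markers) were hand-written. All were chosen with earlier results of these data known, and the study's own gene list for these samples names S100A8 and S100A9, so they are no independent evidence. The named genes were the 9 genes, ARID1A, list genes that were called or whose role needed it, tested genes within 500 kb of S100A9 or S100A8, and the 5 genes most like S100A9 and S100A8. The library kit's strand setting is not given in the sources used here. Promoters were matched by symbol to RefSeq (9 of 9 genes, 13 windows). Python 3.11.15 was used for joins and plots.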

Additional observations from a re-analysis of the deposited data

Results flagged for a closer look

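In the 4 ARID1A-deficient samples, the S100A9 level of sg1 replicate 1 (40.3 CPM) was far from the other 3 (18.7 to 22.2 CPM). The gap to the nearest sample was 0.84 of the whole range in CPM, above Dixon's critical value for 4 samples. The samples of both sgRNAs were pooled for this, and the gap on the log scale was not tested. All 9 S100 genes were examined in this way, and chance flags about 1 in 20 such groups. The same library was 1 of the 2 that stood apart over all genes, and its part in the S100A9 level was not tested. The other library that stood apart, sg5 replicate 2, had 22.2 CPM of S100A9, close to the 20.9 CPM of its own replicate.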

How the results depend on the processing

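The number of S100 genes called was 0 in each comparison and rose under some alternatives, in the order sg1, sg5 and joined. DESeq2 called 2, 2 and 3 genes, edgeR with no filter on low counts 4, 4 and 4 (S100A4, S100A8, S100A9 and S100P), and fits without the 2 libraries that stood apart, added after seeing the data, 3, 3 and 4. Over all genes, the fit with no filter called 345, 632 and 701, against 7, 18 and 31 in the reported fit. A fit of only the groups compared called 1 S100 gene in sg5, S100A9, and 29 genes over all. Leaving out each replicate gave 0 to 1, 0 to 1 and 0 to 2. The genes called on leaving out a replicate were S100A9 (without sg1 replicate 1 or sg1 replicate 2) and S100A4 (joined, without sg1 replicate 2). Those fits held a single sg1 sample, so they do not measure the spread within sg1. With the replicate numbers as a block (the paired fit), edgeR called 0 of 9 in every comparison and lowered the calls over all genes from 7, 18 and 31 to 1, 1 and 3. No shared shift by replicate number was seen: deviations from the group means correlated at 0.07 (LacZ and sg1), 0.01 (LacZ and sg5) and -0.21 (sg1 and sg5). With 2 samples per group, these values cannot show whether the samples were paired. A crossed replicate block, added after seeing the data, called 1, 1 and 3 S100 genes, and 59, 157 and 194 over all genes. No alternative called an S100 gene between sg1 and sg5. The cause of these changes was not tested. Of 625 values of single genes under alternatives, 41 newly passed the threshold, 53 changed sign without passing it, and 531 kept direction and side. The changes of sign were in S100A6, S100A11 and S100A13 against LacZ and in the comparison of sg1 with sg5. Precision is lowest for S100A12 (2 to 20 counts) and S100A8 (48 to 342 counts), and each group had 2 replicates.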
